A study of Mus musculus with 4 samples.

Results

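The genes described here set the pace of G1, the stretch of the cell cycle in which a cell commits to another division. They are the D cyclins Ccnd1, Ccnd2 and Ccnd3, the kinases Cdk4 and Cdk6 that these cyclins activate, the CDK inhibitors Cdkn1a, Cdkn1b, Cdkn2c and Cdkn2d, and the anti-proliferative gene Btg1. They were chosen by symbol, with 1 row per Entrez identifier, and make up 10 of the 27178 genes of the table, of which 14589 had a read. RNA came from neural crest-derived gut cells of Wnt1-tdT mouse embryos, taken 11.5 days post coitum and sorted by flow cytometry for the tdT reporter after digestion with collagenase and dispase. All 4 libraries share this genotype and age and no treatment is labelled. There were 2 wavefront libraries, from cells at the front of the advance along the gut, and 2 trailing libraries, from cells 1 to 1.5 mm further back. The reporter marks cells by descent, so a sort holds progenitors together with any neurons and glia they have formed, and the labels do not say how many embryos each library pooled or whether replicates came from separate embryos. The p-values therefore rest on how much these libraries varied, and that variation may be technical.

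D cyclins are made in response to growth signals and bind Cdk4 or Cdk6, and the active kinases phosphorylate the retinoblastoma protein, which releases E2F factors to switch on genes of DNA replication. INK4 inhibitors such as Cdkn2c and Cdkn2d bind Cdk4 and Cdk6 directly, while CIP/KIP inhibitors such as Cdkn1a, Cdkn1b and Cdkn1c bind cyclin and kinase together. Enteric crest cells divide as they colonise the gut, and those that become neurons leave the cycle over time.

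Wavefront replicate 2 stands apart from the other libraries. It held 114972 reads outside ribosomal RNA against 330644 to 452144 in the other 3, and ribosomal RNA took 55.5% of its reads against 15.6 to 26.1%. The enteric crest markers Ret and Sox10 were read in every library, with 864 and 545 reads in trailing libraries, then 1413 and 155 in wavefront libraries of Ret, and 22 and 26 against 14 and 4 of Sox10. Of 18 markers of enteric neurons tested by counts, 16 fell at the wavefront in edgeR, while the whole list summed to 4102 and 4463 scaled CPM in the trailing libraries against 1247 and 1014 (scaled CPM are CPM recomputed from the reads with TMM-adjusted library sizes). None of the 22 listed neuron markers in the table was at 0 in all libraries. Gut mesenchyme markers summed to 179 and 189 scaled CPM in trailing cells, 385 in wavefront replicate 1 and 1019 in wavefront replicate 2, with Barx1, Cnn1 and Myh11 at 0 throughout. Erythroid markers summed to at most 2 reads in 3 of the libraries and to 111 in wavefront replicate 2, where Hbb-y alone had 67. The part of these cell types in the results below was not tested.

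None of the D cyclins, G1 kinases, inhibitors or Btg1 differed between wavefront and trailing cells past the threshold. The 2 tests were limma on log2(CPM + 1), the test for the deposited unit, and edgeR's quasi-likelihood test on whole reads recovered from those values, both with Benjamini-Hochberg adjustment over all genes and a threshold of 0.05. Limma could test 9 of the 10 genes and called 0, with 0 at an unadjusted p under 0.05, against a background of 0% called and 6.85% at an unadjusted p under 0.05 among 12519 genes. EdgeR could test 5 of the 10 and called 0, with 0 at an unadjusted p under 0.05, against 1.74% called and 9.95% at an unadjusted p under 0.05 among 5759 genes. DESeq2 on the same reads gave an adjusted p for 4 of those 5, all but Btg1. It called 0 of the 4, against 0.426% called among 3519 genes, and 0 of the 5 had an unadjusted p under 0.05. The 5 that edgeR could not test had too few reads for its filter on low counts. Log2 fold changes are given as wavefront over trailing, and their median was 0.01 over the 5 genes in edgeR and 0.01 over all genes it tested, and it was -0.27 over the 9 genes in limma and -0.35 over all genes limma tested. In bulk samples, fewer cells of a type and less RNA per cell cannot be told apart.

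Cdk4 and Ccnd1 were by far the most abundant of the 10 genes, and the inhibitors among the 10 were near the limit of what these libraries could count. Because a longer transcript collects more reads, levels of different genes are compared per kilobase of annotated exon. On that scale trailing cells held 393 ± 19.2 scaled CPM per kilobase of Cdk4 and wavefront cells 375 ± 149 (mean ± SD, n = 2 each). Ccnd1 followed at 197 ± 38.7 and 286 ± 84.4, in the 99.0th and 99.4th percentiles of 13430 genes with a read and an exon length. Ccnd2 came next at 30.6 ± 2.07 and 31.1 ± 2.88. Ccnd3, Cdkn2d and Btg1 lay at 11.4 ± 1.76, 11.5 ± 3.37 and 5.96 ± 1.69 in trailing cells and at 12.6 ± 4.42, 8.34 ± 3.22 and 4.98 ± 1.07 at the wavefront. Cdkn1b, Cdk6 and Cdkn1a were at 2.30 ± 0.459, 0.861 ± 0.414 and 0.532 ± 0.0384 in trailing cells. At the wavefront they were at 1.22 ± 1.73, 0.910 ± 0.161 and 2.02 ± 1.58, in another order that rests on few reads. Cdkn2c was at 0 in both groups. The spreads of Ccnd3 and Cdkn2d overlap in both groups, and their order changed between libraries. The spreads of Cdk4 and Ccnd1 overlap at the wavefront and are separated in trailing cells. Within every library, though, Cdk4 lay above Ccnd1. The values were 407 against 225 and 380 against 170 in trailing libraries, then 480 against 345 and 269 against 226 in wavefront libraries. Fragmentation and amplification can favour one transcript over another, so the order is that of reads per exon length, not of molecules. The exon length pools all annotated transcripts of a gene, and which of them these cells made was not measured.

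**Figure D1:**
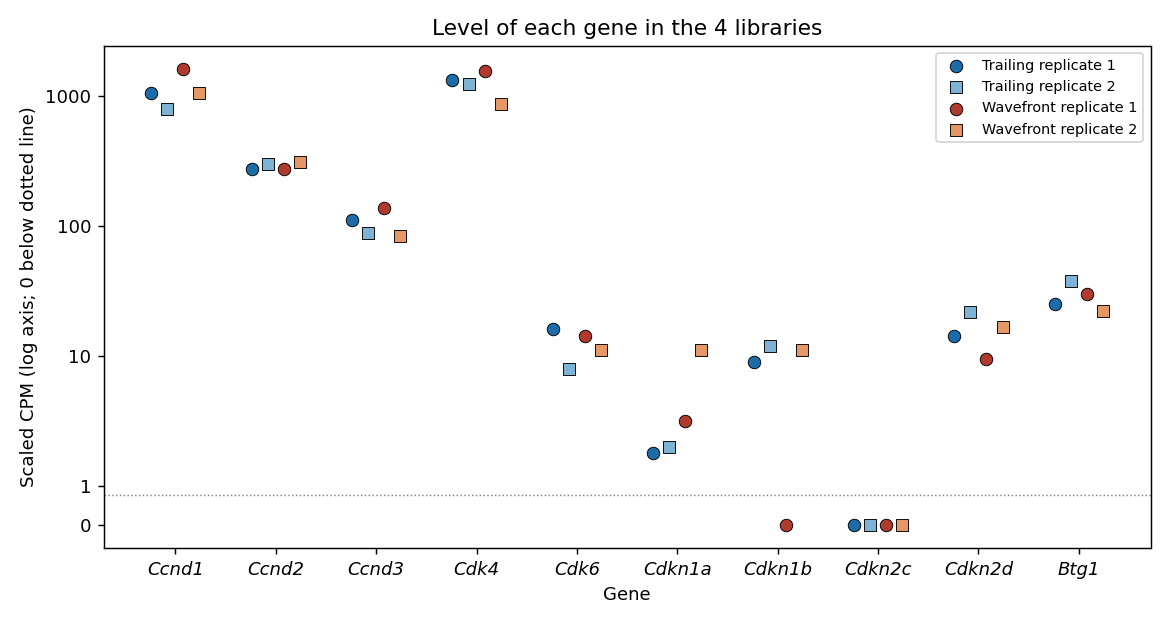
Scaled CPM of each of the 10 genes (log axis, with 0 drawn below the dotted line) in the 4 libraries, blue for trailing and red or orange for wavefront, circles for replicate 1 and squares for replicate 2. Cdk4 and Ccnd1 sit between 801 and 1626 in every library, the 4 inhibitors, Cdk6 and Btg1 below 40, and Cdkn2c at 0.

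The promoters of the 2 kinases are shown because these paralogues, which bind the same cyclins, differed widely in level. The sequences are those before the annotated start in RefSeq on GRCm38.p6, cut where a GENCODE exon begins, with capitals marking CACGTG, the palindromic E-box that Myc and Max family proteins can bind. RefSeq windows were at hand for 8 of the 10 genes, 11 windows in all, and Ccnd1 and Ccnd2 had none.
Cdk4 (chr10:127063285-127063533, plus strand): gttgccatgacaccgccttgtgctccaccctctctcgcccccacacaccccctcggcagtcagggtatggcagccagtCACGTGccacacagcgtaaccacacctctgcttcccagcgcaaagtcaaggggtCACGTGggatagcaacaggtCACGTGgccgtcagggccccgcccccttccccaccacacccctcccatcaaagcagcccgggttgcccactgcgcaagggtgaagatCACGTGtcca
Cdk6 (chr5:3343643-3343731, plus strand): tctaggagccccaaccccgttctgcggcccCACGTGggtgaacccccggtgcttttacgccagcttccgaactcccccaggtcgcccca
The 250 bases before the Cdk4 start hold 4 copies of CACGTG, beginning 172, 118, 98 and 11 bases upstream. At least 4 copies were found in 7 of 32851 windows of that length (0.0213%), and at least 1 copy in 6.02%. The cut of 4 equals the count in the Cdk4 window, which is 1 of 11 windows searched, so that share is descriptive and not a test. The Cdk6 window, which belongs to a start inside the annotated span of the gene, holds 1 copy, 220 bases upstream, and the other 9 windows of these genes hold none. Neither TTTGGCGC nor TTTCCCGC, octamers that E2F factors can bind, was found on either strand in the 11 windows; 0.417% and 0.895% of all windows hold them. The GC box GGGCGG, searched on both strands, was in 8 of the 11 windows and in 32.7% of all windows. A match describes the letters only, and no binding was measured here. The part of these sites in the levels of the 2 kinases was not tested.

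Ccnd1, the D cyclin most often used downstream of growth factor receptors, lies on chromosome 7 (144929931 to 144939925, GRCm38, minus strand). It had 590 and 403 reads in trailing replicates 1 and 2 and 1022 and 191 in wavefront replicates 1 and 2. After scaling these were 1059 and 801 CPM against 1626 and 1064. Wavefront replicate 1 was the highest, and wavefront replicate 2 lay just above the higher trailing library. The groups did not overlap on this scale, which 32.5% of genes with a read also showed in either direction. In the deposited CPM they did overlap, with 1141 and 891 in trailing cells against 1882 and 734 at the wavefront. The log2 fold change was 0.54 ± 0.37 (SE; 95% interval -0.21 to 1.29), a 1.45-fold difference, and did not pass (edgeR, unadjusted p = 0.155, adjusted p = 0.706). In limma it was 0.22 ± 0.77 (adjusted p = 0.970). The authors' deposited table gives 0.47 with a standard error of 0.32 and an unadjusted p-value of 0.140. The wavefront libraries differed from each other by 1.53-fold (95% exact binomial counting interval 1.31 to 1.79), as much as the groups did. The edgeR value moved to 0.86 without wavefront replicate 2 (adjusted p = 0.254) and to 0.19 without wavefront replicate 1. It also moved to 0.35 without trailing replicate 2, and was 0.78 without trailing replicate 1.

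Ccnd2, a D cyclin prominent in embryonic neural progenitors, lies on chromosome 6 (127125162 to 127152193, minus strand). It had 153 and 152 reads in trailing libraries, then 172 and 56 in wavefront libraries, which scaled to 275 and 302 CPM against 274 and 312. The 4 values lay within a narrow range and the groups overlapped. The log2 fold change was 0.01 ± 0.31, with a 95% interval of -0.62 to 0.64, so that a difference above 1.56-fold in either direction lay outside it (edgeR adjusted p = 0.997). In limma, on CPM scaled by library total, it was -0.27 ± 0.45 (adjusted p = 0.917).

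Ccnd3, the D cyclin best known from blood and muscle, lies on chromosome 17 (47505051 to 47599691, plus strand). It had 62 and 45 reads in trailing libraries, then 87 and 15 in wavefront libraries, or 111 and 89.4 against 138 and 83.6 scaled CPM. The wavefront libraries were the highest and the lowest of the 4. The log2 fold change was 0.24 ± 0.31 (95% interval -0.39 to 0.87; edgeR adjusted p = 0.883) and -0.18 ± 0.55 in limma (adjusted p = 0.962). Its direction turned to -0.27 in edgeR without wavefront replicate 1.

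The make-up of the D cyclin reads was computed within each library, so it does not depend on how libraries are scaled. Ccnd1 supplied 73.3% of them in trailing replicate 1 (95% exact binomial interval 70.1 to 76.3%) and 67.2% in trailing replicate 2 (63.2 to 70.9%). At the wavefront it supplied 79.8% in replicate 1 (77.5 to 81.9%) and 72.9% in replicate 2 (67.1 to 78.2%). The highest share was in wavefront replicate 1, and the other wavefront library fell between the trailing ones. The mean share was 70.2 ± 4.33% in trailing cells and 76.3 ± 4.87% at the wavefront (exact permutation test, two-sided p = 0.667; with 2 libraries a group the smallest possible is 0.333). The difference of 6.11 percentage points moved to between 2.67, without wavefront replicate 1, and 9.55, without wavefront replicate 2. Ccnd2 supplied 19.0 and 25.3% of D cyclin reads in trailing cells and 13.4 and 21.4% at the wavefront (exact permutation p = 0.667). Ccnd3 supplied 7.70 and 7.50% against 6.79 and 5.73%, the 1 share of the 3 whose groups did not overlap (exact permutation p = 0.333, the smallest possible); the binomial interval of wavefront replicate 2, 3.24 to 9.27%, covers all 4 shares. Over the 6 shares computed within these families, Benjamini-Hochberg adjustment of the exact permutation p-values gave 0.8 or more for each. Per kilobase of exon Ccnd1 made up 80.1 to 88.5% of D cyclin signal in each of the 4 libraries. No molecular identifiers are named in the labels, so these intervals cover counting error only.

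**Figure D2:**
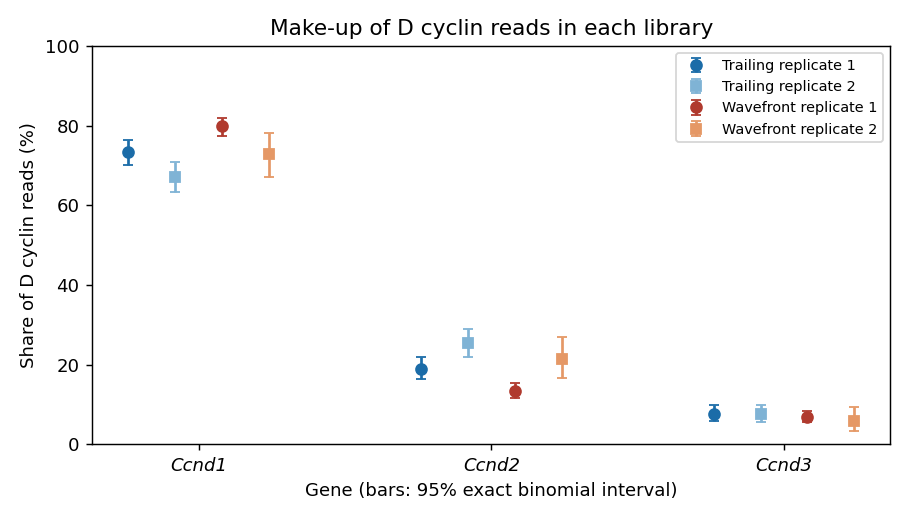
Share of D cyclin reads (percent) held by Ccnd1, Ccnd2 and Ccnd3 in each of the 4 libraries, with 95% exact binomial intervals as bars. Ccnd1 holds 67.2 to 79.8% in the 4 libraries, and the trailing and wavefront points of Ccnd1 and Ccnd2 interleave.

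Cdk4, the kinase partner of D cyclins in most dividing cells, lies on chromosome 10 (127063534 to 127067920, plus strand). It had 737 and 621 reads in trailing libraries, then 980 and 157 in wavefront libraries, or 1322 and 1234 against 1559 and 875 scaled CPM. The trailing libraries were close together and lay between the wavefront ones. The log2 fold change was -0.06 ± 0.38 (95% interval -0.82 to 0.70; edgeR adjusted p = 0.981), and -0.42 ± 0.82 in limma (adjusted p = 0.940). The wavefront libraries differed by 1.78-fold (counting interval 1.50 to 2.12) and the trailing ones by 1.07-fold (0.962 to 1.19). Leaving out wavefront replicate 2 moved the edgeR value to 0.34 and leaving out wavefront replicate 1 to -0.55, so the direction depended on which wavefront library was kept.

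Cdk6, the paralogue of Cdk4 that is typical of blood and some neural progenitors, lies on chromosome 5 (3341485 to 3531008, plus strand). It had 9 and 4 reads in trailing libraries, then 9 and 2 in wavefront libraries, too few for the count test. The scaled ratio of reads, wavefront over trailing, was 1.11 (95% exact binomial counting interval 0.451 to 2.69), and limma gave -0.12 ± 0.69 (adjusted p = 0.987). Cdk4 held 98.8 and 99.4% of the reads of the pair in trailing cells and 99.1 and 98.7% at the wavefront (exact permutation p = 0.667). The difference between the groups, -0.16 percentage points, turned to 0.12 without trailing replicate 2 and to 0.013 without wavefront replicate 2. Cdk4 dominated in all 4 libraries, and the interval of wavefront replicate 2, the widest, reached down to 95.5%.

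Among the CIP/KIP inhibitors, Cdkn1a and Cdkn1b were barely detected. Cdkn1a, which encodes the p53-inducible inhibitor p21, lies on chromosome 17 (29090976 to 29100727, plus strand) and had 1 and 1 reads in trailing libraries, then 2 and 2 in wavefront libraries. The groups did not overlap in CPM, but the scaled ratio of 2.63 had a counting interval of 0.376 to 29.0 (limma 1.05 ± 0.80, adjusted p = 0.786, moving to 0.61 without wavefront replicate 2 and to 0.57 with a pseudocount of 5). Cdkn1b, which encodes p27, an inhibitor that holds many cells out of the cycle and is also controlled through protein breakdown, lies on chromosome 6 (134920401 to 134925513, plus strand). It had 5 and 6 reads in trailing libraries, then 0 and 2 in wavefront libraries. In the deposited CPM both wavefront libraries lay below both trailing ones, at 0 and 7.69 against 9.67 and 13.3, but after scaling the value of wavefront replicate 2, 11.1, fell between the trailing values of 8.97 and 11.9. The scaled ratio was 0.239 with a counting interval of 0.0257 to 1.09, which includes 1, and limma gave -2.07 ± 1.14 (adjusted p = 0.740). The limma value moved to -0.51 without wavefront replicate 1, to -3.63 without wavefront replicate 2 and to -1.04 with a pseudocount of 5, and did not pass in any of these. Cdkn1b held 5 of 6 and 6 of 7 reads of the pair in trailing cells and 0 of 2 and 2 of 4 at the wavefront (exact permutation p = 0.333, the smallest possible).

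Of the INK4 inhibitors, Cdkn2d was read in every library and Cdkn2c in none. Cdkn2d, which encodes an INK4 protein found in many neural lineages, lies on chromosome 9 (21288410 to 21291407, minus strand) and had 8 and 11 reads in trailing libraries, then 6 and 3 in wavefront libraries. These were 15.5 and 24.3 deposited CPM against 11.05 and 11.5, without overlap, but 14.4 and 21.9 against 9.55 and 16.7 scaled CPM, with overlap. The scaled ratio was 0.622 (counting interval 0.248 to 1.44), and limma gave -0.73 ± 0.56 (adjusted p = 0.786), which moved to -0.42 without trailing replicate 2, to -0.46 with DESeq2 size factors and to -0.47 on CPM outside ribosomal RNA. Cdkn2c, on chromosome 4 (109660876 to 109667189, minus strand), had 0 reads in each library, which allows up to 3 reads, or 5.80 and 6.64 CPM at the trailing depth and 5.52 and 11.5 CPM at that of the wavefront. In all, 3 of the 10 genes did not overlap in deposited CPM (Cdkn1a, Cdkn1b and Cdkn2d, against 31.7% of genes with a read) and 2 did not in scaled CPM (Ccnd1 and Cdkn1a, against 32.5%).

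Set against the D cyclins, the 4 inhibitors among the 10 genes were a small pool in every library. They summed to 14 and 18 reads in trailing cells against 805 and 600 D cyclin reads, and to 8 and 7 at the wavefront against 1281 and 262. Their share of the joint reads was 1.71 and 2.91% in trailing cells and 0.621 and 2.60% at the wavefront. Per kilobase of exon the share was larger, at 4.17 and 7.44% in trailing cells and 1.75 and 5.69% at the wavefront, with the libraries in the same order. That scale allows for length only roughly, since it pools the exons of all annotated transcripts of a gene. In reads, wavefront replicate 1 had the lowest share (95% exact binomial interval 0.268 to 1.22%), while wavefront replicate 2 (1.05 to 5.29%) lay between the trailing libraries. Cdkn1c, a CDK inhibitor outside the 10 genes, is not in this pool. It alone had more reads than the 4 together in every library, with 64 and 102 in trailing cells and 44 and 11 at the wavefront. Inhibitor protein can be held at levels that its mRNA does not show, and protein was not measured here.

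Btg1, a B-cell translocation gene family protein that recruits the CCR4-NOT deadenylase and slows division in many cells, lies on chromosome 10 (96617006 to 96622809, plus strand). It had 14 and 19 reads in trailing libraries, then 19 and 4 in wavefront libraries, or 25.1 and 37.8 against 30.2 and 22.3 scaled CPM. The groups overlapped. The log2 fold change was -0.15 ± 0.48 (95% interval -1.11 to 0.80; edgeR adjusted p = 0.960) and -0.52 ± 0.56 in limma (adjusted p = 0.837). Btg1 and Cdkn1a can respond to cell stress, so the genes of dissociation stress were summed. They stood at 797 and 1820 scaled CPM in trailing replicates 1 and 2 and at 776 and 1320 in wavefront replicates 1 and 2, higher in both second replicates. Hspa1b and Klf2 were at 0 throughout, and the part of dissociation in the values of Btg1 was not tested.

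**Figure D3:**
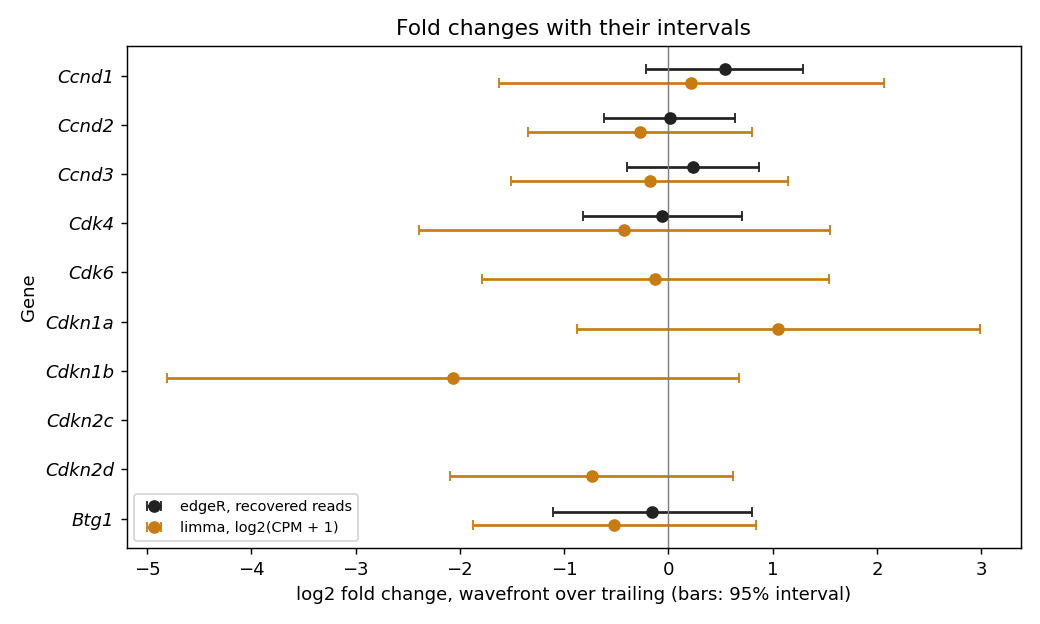
Log2 fold changes, wavefront over trailing, of the 10 genes in edgeR (black, 5 genes) and limma (orange, 9 genes), with 95% intervals as bars. Every interval crosses 0, and Cdkn2c has no value because it had 0 reads.

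The settings of the count test changed the sign of some of these small differences but not the outcome for any of the 5 genes in its main form. Ccnd1 stayed above 0 in all 12 alternatives of the edgeR test, between 0.19 and 0.86, with a lowest adjusted p of 0.254. Ccnd2 was above 0 in 9 of 12, Ccnd3 in 11 of 12, Cdk4 in 2 of 12 and Btg1 in 2 of 12.

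**Figure D4:**
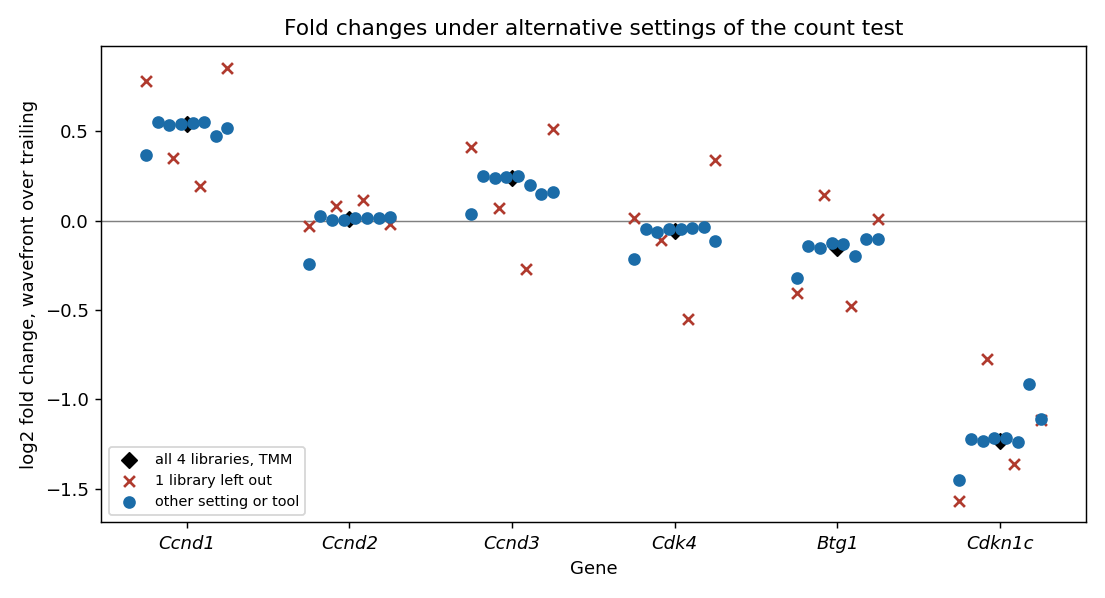
Log2 fold changes, wavefront over trailing, of the 5 genes tested by edgeR and of Cdkn1c, with black diamonds for all 4 libraries, red crosses with 1 library left out and blue circles for other settings or tools. Ccnd1 lies above 0 and Cdkn1c below 0 throughout, while Ccnd2, Ccnd3, Cdk4 and Btg1 have points on both sides of 0.

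Of the other CDK inhibitors, Cdkn1c fell at the wavefront in the count test, where 1.34% of all tested genes fell. Cdkn1c encodes p57, the third CIP/KIP protein, an imprinted gene often raised as cells leave the cycle, and lies on chromosome 7 (143458339 to 143461050, minus strand). It had 64 and 102 reads in trailing libraries, then 44 and 11 in wavefront libraries, and both wavefront libraries lay below both trailing ones after scaling. The log2 fold change was -1.23 ± 0.34 (95% interval -1.91 to -0.55; edgeR adjusted p = 0.0386). It was below 0 in all 12 alternatives but passed in 1 of them, scaling by RLE size factors. The call was lost with any 1 library left out, with adjusted p from 0.0505 without trailing replicate 1 to 1.00 without trailing replicate 2, where the value was -0.77. It did not pass in limma, where no gene passed (-1.50, adjusted p = 0.680), or in DESeq2 (adjusted p = 1.00). Neuron markers fell in the same libraries (16 of 18 tested, 4102 and 4463 against 1247 and 1014 scaled CPM in sum), as did 2 of 4 tested glia and Schwann precursor markers (423 and 314 against 151 and 117, with Gfap, Mal and S100b among those at 0), and their part in the fall of Cdkn1c was not tested. Cdkn2a and Cdkn2b, the INK4 genes linked to senescence, had 0 reads in all 4 libraries. Cdkn3, a phosphatase that acts on CDKs, had 4 and 3 reads in trailing libraries, then 2 and 0 in wavefront libraries.

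Downstream of the D cyclins, 0 genes passed. Over all 5759 genes tested by edgeR 1.74% passed, a share that leaves little room for a call in lists this short. Of 17 genes of the retinoblastoma, E2F and DP families, 5 were tested by edgeR and 0 passed, with a median log2 fold change of 0.09 against 0.01 for all genes. The most abundant was Tfdp1, the DP partner of E2F factors, with 26 and 29 reads in trailing libraries, then 39 and 11 in wavefront libraries (0.25 ± 0.35, edgeR adjusted p = 0.894), followed by the activator E2f3 (-0.31 ± 0.40, edgeR adjusted p = 0.882). Of 6 genes of cyclin E, cyclin A and CDK2, 5 were tested and 0 passed (median 0.29). Ccna2, the S and G2 cyclin, gave 190 and 145 reads behind the front and 321 and 74 at it (0.56 ± 0.32, edgeR adjusted p = 0.599), and Ccne1, which drives entry into S phase, was at -0.00 ± 0.33 (edgeR adjusted p = 0.999). All 18 S phase genes were tested and 0 passed, with 14 above 0 and a median of 0.34. The 2 most abundant were Rrm2, a subunit of ribonucleotide reductase (0.91 ± 0.37, edgeR adjusted p = 0.328), and Mcm6, of the replicative helicase (0.36 ± 0.35, edgeR adjusted p = 0.831). All 19 mitosis genes were tested and 0 passed, with 14 above 0 and a median of 0.19. Top2a, which untangles chromosomes, was at 0.37 ± 0.33 (edgeR adjusted p = 0.815) and Hmgb2, a chromatin protein, at -0.23 ± 0.31 (edgeR adjusted p = 0.883). Of all genes tested by edgeR, 50.9% were above 0. In limma the medians were 0.05 for S phase and -0.19 for mitosis, against -0.35 for all genes. There 11 of 18 S phase genes and 7 of 19 mitosis genes were above 0, against 29.2% of all genes.

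Partners and regulators of the same machinery gave 0 calls as well, in lists as short, against 1.74% of all genes tested by edgeR. Among 8 genes of the CDK-activating kinase and other D-cyclin partners, 7 were tested (median -0.60). The kinase chaperone Cdc37, which loads Cdk4 onto Hsp90, gave 199 and 148 reads behind the front and 243 and 55 at it (0.11 ± 0.32, edgeR adjusted p = 0.958), and Hsp90ab1 was at 0.10 ± 0.51 (edgeR adjusted p = 0.975). Of 14 genes for the turnover of D cyclins and inhibitors 11 were tested (median 0.12), led by Ddb1, a ubiquitin ligase adaptor (0.50 ± 0.36, edgeR adjusted p = 0.719), and Gsk3b, which marks cyclin D1 for breakdown (0.17 ± 0.32, edgeR adjusted p = 0.922). Of 8 BTG and TOB family and CCR4-NOT genes 5 were tested (median -0.20), with the deadenylase Cnot7 at 0.72 ± 0.31 (edgeR adjusted p = 0.411) and its scaffold Cnot1 at 0.77 ± 0.33 (edgeR adjusted p = 0.397). Of 10 Myc family genes and partners 3 were tested (median -0.04), and Mycn, the member typical of embryonic neural tissue, gave 35 and 40 reads behind the front and 47 and 17 at it (0.19 ± 0.33, edgeR adjusted p = 0.911), while Mga, a Max partner, was at -0.04 ± 0.34 (edgeR adjusted p = 0.988). Of 15 genes of p53 and its targets 5 were tested (median -0.18), with Trp53 itself at 0.61 ± 0.31 (edgeR adjusted p = 0.509) and its ubiquitin ligase Mdm2 at -0.18 ± 0.35 (edgeR adjusted p = 0.925). Of 17 dissociation stress genes 6 were tested (median -0.59), with Jun at -0.74 ± 0.37 (edgeR adjusted p = 0.515) and Klf6 at 0.15 ± 0.32 (edgeR adjusted p = 0.939).

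**Figure D5:**
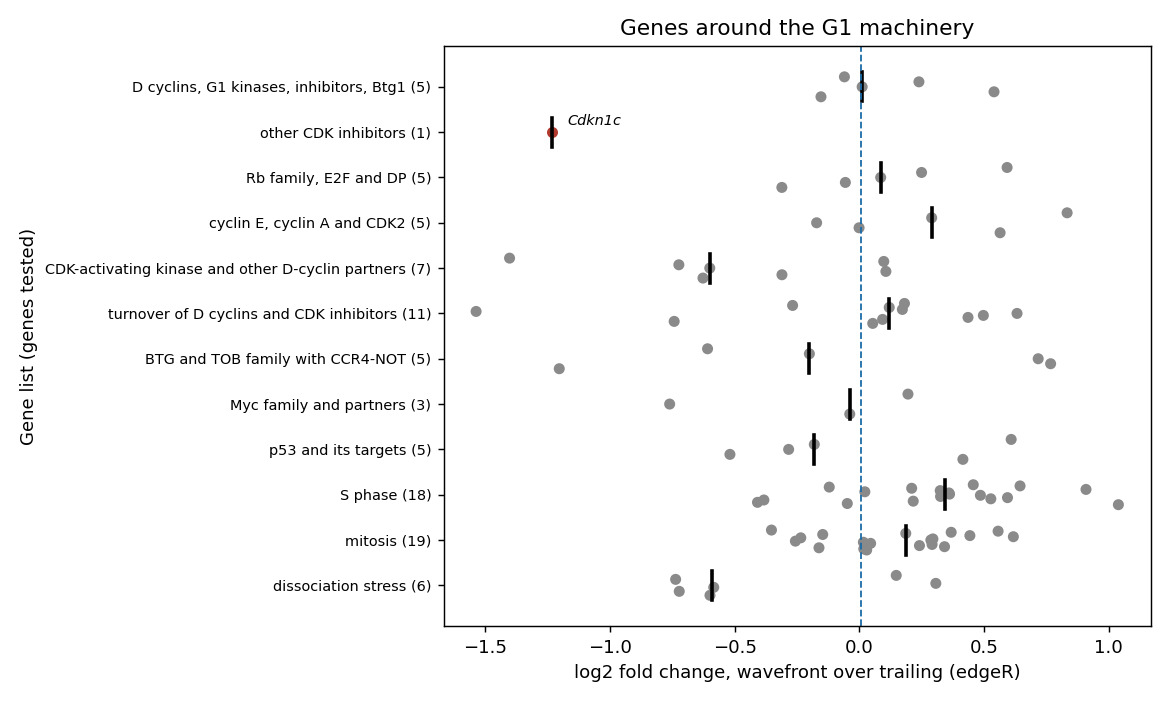
Log2 fold changes, wavefront over trailing, of the genes tested by edgeR in each list, 1 point per gene, with the list's median as a black bar and the median of all tested genes as a dashed line. Cdkn1c, in red, is the 1 gene of these lists that passed the threshold.

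Some of these genes overlap others in the annotation, and the library kit does not keep the strand. Ccnd1 overlaps LTO1 by 1771 bases on the other strand (14, 17, 8 and 3 reads), Ccnd3 overlaps Bysl by 361 bases (38, 36, 41 and 11 reads) and Cdk4 overlaps Tspan31 by 641 bases (37, 24, 40 and 10 reads, in the order trailing replicates 1 and 2, wavefront replicates 1 and 2). None of the sources used here gives the counting rule for such overlaps. The near-copies Btg1-ps1 and Btg1-ps2 had 0 reads, and Ccnd3-ps, a processed pseudogene on chromosome 4, was not analysed here. Antisense genes annotated across Ccnd2 and Cdk6 and at Cdkn1c had 0 reads or were not analysed here.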

How the data were processed

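The submitters' processing notes name the build GRCm38 (mm10) and the tools STAR 2.5.2b, featureCounts, bcl2fastq 2.17, DESeq2 and FastQC 0.11.9. The library kit was Nextera XT, per the labels. Values for each library are CPM, as the authors deposited them, per the file headers. Each CPM value was a whole multiple of 1 read (100% within 0.01 reads), so whole reads were recovered, with totals of 517000, 452142, 543070 and 260217 for trailing replicates 1 and 2 and wavefront replicates 1 and 2. The deposited BaseMean is a signal, the mean of scaled reads. The deposited fold change and standard error are on the log2 scale, the deposited Wald statistic is a score, and the deposited p-value is unadjusted. Of 27606 rows, 428 repeated an identifier and were left out, and 958 had no symbol.

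Limma 3.58.1 tested log2(CPM + 1) with a mean-variance trend for genes with a mean CPM above 1. The added 1 draws the fold changes of low genes toward 0. The deposited CPM divide by totals that include ribosomal RNA, and over all genes each test took the median was -0.35 in limma and 0.01 in edgeR. Falls in limma were therefore not always the smaller ones, as for Btg1, at -0.52 in limma and -0.15 in edgeR. EdgeR 4.0.16 (TMM, filterByExpr with 10 reads) was the count test on recovered reads and called 100 of 5759 genes, and DESeq2 1.42.0 was an alternative, in R 4.3.3. Location was the only term. All tests were two-sided. Limma and edgeR were also run on simulated data in which, apart from genes set to change, all libraries shared the same composition. That setting lacks the high ribosomal RNA share of wavefront replicate 2, so it does not show how the tests behave on these libraries. Standard errors in edgeR are the fold change over the root of F. Positions and exon lengths are from GENCODE M21, promoters from RefSeq (GRCm38.p6). Named genes outside the 10 are those of the pathway lists past the edgeR threshold or among the 2 most abundant tested of each list; Cdkn2a, Cdkn2b, Cdkn3 and the marker and stress genes given as at 0 fall outside this rule and were named after their values were seen. Members, lists and tests were chosen with earlier results of these data known. Some listed marker genes are not reported here.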

Additional observations from a re-analysis of the deposited data

How the results depend on the processing

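EdgeR called 100 genes (23 higher, 77 lower), 74 with library size alone (9 higher, 65 lower), 15 of 3519 in DESeq2, 13 by the authors' deposited p-values and 41 to 142 with 1 library left out. Limma called 0 genes, 0 to 0 with 1 library left out, 3 with a pseudocount of 5, 5 without a filter, 45 above a mean CPM of 20, 10 with DESeq2 size factors and 4 on CPM outside ribosomal RNA. Labels number the replicates without saying that numbers mark a shared litter or day, and same-numbered libraries barely deviated together (r = 0.071 across 5759 genes). Counting error also lowers such a correlation, so it does not settle whether they share a litter or day. With the replicate number as a block edgeR called 78 genes and limma 52; Ccnd1 was at 0.52 (edgeR adjusted p = 0.493), and Cdkn1c was lost (adjusted p = 0.108). Alternatives were counted for the 9 of the 10 genes in the main limma test and the 5 in the main edgeR test. Of these 155 values 0 passed (DESeq2 gave no adjusted p for Btg1), and 21 changed sign. Cdkn2c had none, and for Cdk6, Cdkn1a, Cdkn1b and Cdkn2d no alternative of the count test was counted. Some limma settings called no gene at all, so not passing there does not tell a gene with a difference from one without. Ccnd2 was at -0.24 in edgeR with library size alone. In limma Ccnd2, Ccnd3 and Cdk6 turned to 0.016, 0.10 and 0.13 with DESeq2 size factors and to 0.013, 0.10 and 0.14 on CPM outside ribosomal RNA. With 1 library left out, edgeR gave -0.030 to 0.11 for Ccnd2, -0.27 to 0.51 for Ccnd3, -0.55 to 0.34 for Cdk4 and -0.48 to 0.15 for Btg1. Limma gave -0.46 to 0.90 for Ccnd1, -0.55 to 0.0059 for Ccnd2, -0.91 to 0.55 for Ccnd3, -1.21 to 0.37 for Cdk4, -0.63 to 0.38 for Cdk6, 0.61 to 1.50 for Cdkn1a, -3.63 to -0.51 for Cdkn1b, -1.04 to -0.42 for Cdkn2d and -1.09 to 0.050 for Btg1. A group left with 1 library is assumed to vary like the other. The causes were not tested. With 1 library left out, wavefront minus trailing shares ran from 2.67 to 9.55 percentage points for Ccnd1, -8.74 to -0.80 for Ccnd2, -1.88 to -0.81 for Ccnd3, -0.44 to 0.12 for Cdk4 and -84.5 to -34.5 for Cdkn1b. Per kilobase of exon Ccnd1 was at 4.11, and the inhibitor share of joint reads went from -0.70 to -2.08, an alternative chosen after seeing the data. Depth limits the inhibitors and Cdk6 most, at 0 to 11 reads a library.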

Other observations

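Of 64 tested pathway-list genes outside the named set, 6 had edgeR intervals on 1 side of 0, 2 above and 4 below. Such an interval goes with an unadjusted p under 0.05, which 9.95% of all 5759 genes tested by edgeR had. The count of 6 in 64 is near that share. None of the 6 passed the adjusted threshold, and they were picked after their values were seen. Fbxw7, a ubiquitin ligase subunit that marks cyclin E and Myc for breakdown, came nearest to the threshold, at 27 and 31 reads behind the front against 11 and 4 at it (log2 fold change -1.54, 95% interval -2.45 to -0.62; edgeR adjusted p = 0.0705). Mnat1, a subunit of the CDK-activating kinase, had 12 and 19 reads against 8 and 1 (-1.40, interval -2.61 to -0.20; edgeR adjusted p = 0.397). Btg2, a relative of Btg1, had 15 and 24 reads against 5 and 7 (-1.20, interval -2.34 to -0.07; edgeR adjusted p = 0.460). Cdk2, the partner of cyclins E and A, had 41 and 32 reads against 79 and 21 (0.83, interval 0.20 to 1.47; edgeR adjusted p = 0.265). Cdc6, which licenses replication origins, had 21 and 18 reads against 47 and 14 (1.04, interval 0.32 to 1.76; edgeR adjusted p = 0.160). Myc had 35 and 39 reads against 21 and 11 (-0.76, interval -1.50 to -0.02; edgeR adjusted p = 0.487), with the opposite sign to Mycn, and the difference between the pair was not tested.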
